A study of Homo sapiens with 14 samples.

Results

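The genes described here are 10 long noncoding RNA genes whose introns carry small nucleolar RNAs (snoRNAs): GAS5, SNHG1, SNHG3, SNHG5, SNHG6, SNHG7, SNHG8, SNHG12, SNHG15 and SNHG16. They were chosen by name among the 58780 genes of the deposited count table. The table gives 9 of the 10 under their symbol, and SNHG6 stands in a row with a blank symbol that was identified by its Ensembl identifier in GENCODE release 29. All 10 passed the filter on low counts, together with 21910 genes in all.

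Nascent transcription was measured by PRO-seq, which lets engaged RNA polymerases add labelled nucleotides in permeabilized cells and sequences the labelled RNA. The cells were A549, an established human lung adenocarcinoma line, so every group is a model of 1 line. The 14 libraries form 7 groups of 2. Untreated cells carried a 15 min label and received the 0.01% DMSO that all groups share. GSK591, an inhibitor of the arginine methyltransferase PRMT5, and MS023, an inhibitor of the type I arginine methyltransferases, were each given at 1 µM for 15 min and for 3 h. Each inhibitor was also given for 15 min together with 100 nM dexamethasone (Dex), a synthetic glucocorticoid. A group with Dex alone and a 3 h control group are not analysed here, so at 3 h the inhibitor and the length of treatment cannot be told apart. Nothing in the labels says whether the 2 libraries of a group came from separate cultures, and p-values measure only the spread between these libraries.

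A snoRNA host gene is transcribed by RNA polymerase II, spliced, and its introns are trimmed to mature snoRNAs. Box C/D snoRNAs guide ribose methylation and box H/ACA snoRNAs guide pseudouridylation of ribosomal RNA, and a few, such as the U17 snoRNAs of SNHG3 and the U22 snoRNA of SNHG1, are needed to cut ribosomal RNA precursors. Many host genes start at a run of pyrimidines (the 5′ terminal oligopyrimidine, or TOP, type of start that ribosomal protein genes also have), and many of their spliced RNAs are destroyed by nonsense-mediated decay, so transcription is poorly read from steady-state RNA. GAS5 RNA is also known to bind the glucocorticoid receptor as a decoy of its DNA element.

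The start regions of the 4 genes with a later called change and a RefSeq entry are shown around the start that RefSeq annotates. Each run is 60 bases of the gene's own strand, from 40 bases before the RefSeq start to 20 after it (RefSeq, GRCh38.p14). Capitals mark the longest run of C and T that reaches within 10 bases of the start and, where it was found, the letters TATAA between 40 and 20 bases before it.
SNHG3, chr1:28505903-28505962, plus strand: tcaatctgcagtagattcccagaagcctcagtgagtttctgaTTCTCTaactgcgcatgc
SNHG1, chr11:62855866-62855925, minus strand: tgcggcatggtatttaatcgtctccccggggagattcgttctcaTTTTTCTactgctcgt
SNHG5, chr6:85678714-85678773, minus strand: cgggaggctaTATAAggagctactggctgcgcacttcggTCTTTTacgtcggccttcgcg
SNHG12, chr1:28581854-28581913, minus strand: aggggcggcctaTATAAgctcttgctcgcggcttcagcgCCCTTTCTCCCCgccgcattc
The run of C and T is 12 bases long at SNHG12, 7 at SNHG1, and 6 at SNHG3 and SNHG5. SNHG15 had no entry among the RefSeq promoters used and SNHG6 was left out, so 8 genes were matched. Of these, 7 had a run of at least 6, against 31.1% of all 35116 promoters of the same length. TATAA, searched on the gene's strand only, was found in 4 of the 8 (SNHG5, SNHG7, SNHG8 and SNHG12), against 3.91% of all promoters. The RefSeq start lies 37, 29 and 15 bp from the GENCODE start for SNHG3, SNHG1 and SNHG5 but 1259 bp from it for SNHG12, and the counts rest on GENCODE, so the SNHG12 run and TATAA belong to the RefSeq start alone. These are matches of letters and describe the sequences only.

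The snoRNAs of the gene with the largest change are shown next, since the row of 1 of them holds reads of an SNHG3 intron. RCC1, on the same strand, also spans that intron. SNHG3 carries SNORA73A and SNORA73B, the U17 snoRNAs, which are box H/ACA. Capitals mark the ACA box that stands 3 bases before the end, as in 29.4% of the 955 snoRNA transcripts of GENCODE release 29. SNORD99, a box C/D snoRNA of SNHG12, has its CTGA (box D) in capitals.
SNORA73A, chr1:28507366-28507571, plus strand: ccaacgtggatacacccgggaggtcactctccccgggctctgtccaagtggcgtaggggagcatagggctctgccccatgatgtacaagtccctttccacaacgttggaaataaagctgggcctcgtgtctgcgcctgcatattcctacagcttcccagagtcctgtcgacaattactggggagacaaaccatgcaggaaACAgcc
SNORA73B, chr1:28508559-28508762, plus strand: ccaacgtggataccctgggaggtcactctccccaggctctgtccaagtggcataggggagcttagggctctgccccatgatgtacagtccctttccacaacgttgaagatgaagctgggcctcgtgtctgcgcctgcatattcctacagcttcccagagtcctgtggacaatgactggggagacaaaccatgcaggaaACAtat
SNORD99, chr1:28578749-28578822, minus strand: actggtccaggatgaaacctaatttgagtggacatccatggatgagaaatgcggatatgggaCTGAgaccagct
SNORA73A and SNORA73B are identical at 93.2% of their aligned positions, so reads from one copy may have been assigned to the other or left out.

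How the counts were made decides which of these RNAs can be seen. The 1139 genes whose exons lie wholly within exons of another gene on the same strand all had a count of 0 in every library, and so did all 710 covered only by a gene on the other strand. Of 41795 genes that share no exonic base, 72.6% had counts. Counting within exons, without regard to strand and without reads shared by genes, would give this. Of 25 snoRNA rows inside the host genes, 21 are wholly covered by host exons, since the annotation includes transcripts that retain the introns, and all 21 were at 0. SNORA73B, SNORD99 and SNORD1B, which no annotated host exon covers, and SNORD30, which is covered in part, had counts. A 0 in a snoRNA row therefore says nothing about the snoRNA.

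**Figure D1:**
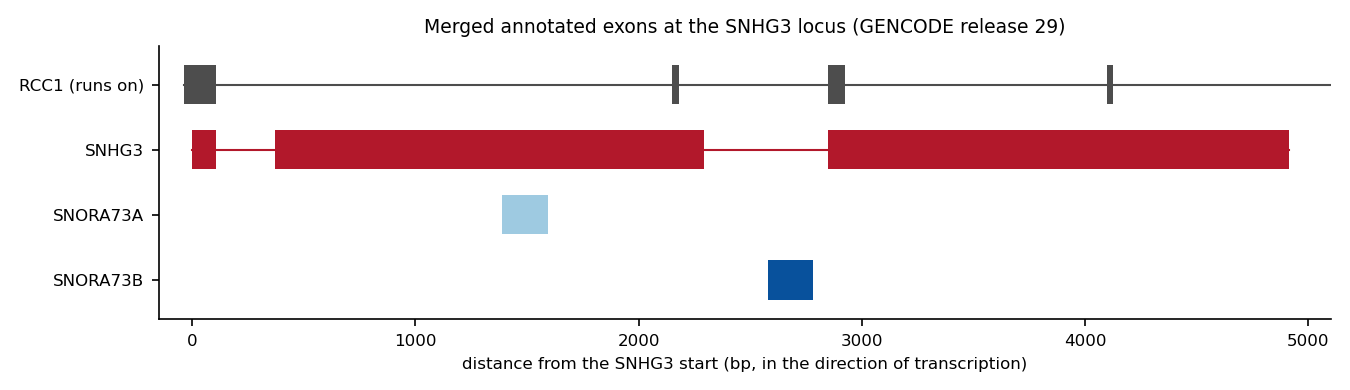
Merged annotated exons (boxes) and introns (lines) of SNHG3, of RCC1 on the same strand, and of the 2 snoRNAs, by distance in bp from the SNHG3 start. SNORA73A lies inside an SNHG3 exon and had a count of 0 in all libraries. SNORA73B lies in an intron of both SNHG3 and RCC1 and had counts, and RCC1 exons overlap every SNHG3 exon.

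The same retained-intron transcripts make exons cover most of these genes. Merged exons took over 50% of the gene span in 8 of the 10, against 14.7% of the 18165 tested genes with more than 1 merged exon. The exceptions were SNHG5 (15.8%) and SNHG6 (26.4%). Reads in bases shared with a neighbour are missing from the counts, and the part of the exons left to count ranged from 63.6% in SNHG6 to 98.8% in GAS5. Counting of the kind inferred above would also add reads of the other strand and of an overlapping gene's introns, such as those of RCC1 at SNHG3. Their part cannot be told from the counts, so a level may not be that of the host gene alone.

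The libraries held 5768312 to 9606938 counts. Mitochondrial genes took 53.8% and 54.0% of counts in the untreated libraries and 39.8% to 58.0% in the treated ones. The GSK591 and Dex libraries stood apart from each other, since their counts differed by a chi-square of 13.4 per degree of freedom, against 2 to 5.38 between the libraries of each other group, and library 2 was the one with 58.0% mitochondrial counts. Values of that group are therefore given without each of its libraries where that changes a call. Levels are given as CPM, counts relative to the library's total after scaling by TMM, a method that sets the scale by the bulk of genes. The 7 epithelial and A549 markers examined summed to 1280 to 1763 CPM, with EPCAM the lowest at 1.30 to 4.09. The 7 markers of blood, endothelial and stromal cells summed to 5.89 to 10.0 CPM, and CD3E was at 0 in all libraries.

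In untreated cells SNHG3 had the highest level of the 10 per length, at 90.1 ± 0.46 CPM per kb of countable exon (SD, n = 2, as for the other levels here). It was followed by SNHG7 at 42.5 ± 2.5, SNHG8 at 41.4 ± 1.6, GAS5 at 35.2 ± 0.92 and SNHG1 at 21.1 ± 0.80 CPM per kb. SNHG12 stood at 19.0 ± 0.34, SNHG15 at 16.1 ± 0.74, SNHG5 at 14.7 ± 0.12, SNHG16 at 13.0 ± 1.2 and SNHG6 at 6.84 ± 0.47 CPM per kb. Among neighbours in this order, the libraries of SNHG7 and SNHG8 overlapped and the other neighbours did not. Against 21407 tested nuclear genes with at least 200 countable bp, SNHG3 stood at percentile 99.6, SNHG16 at 89.8 and SNHG6 at 77.3, and the remaining 7 lay between SNHG3 and SNHG16.

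**Figure D2:**
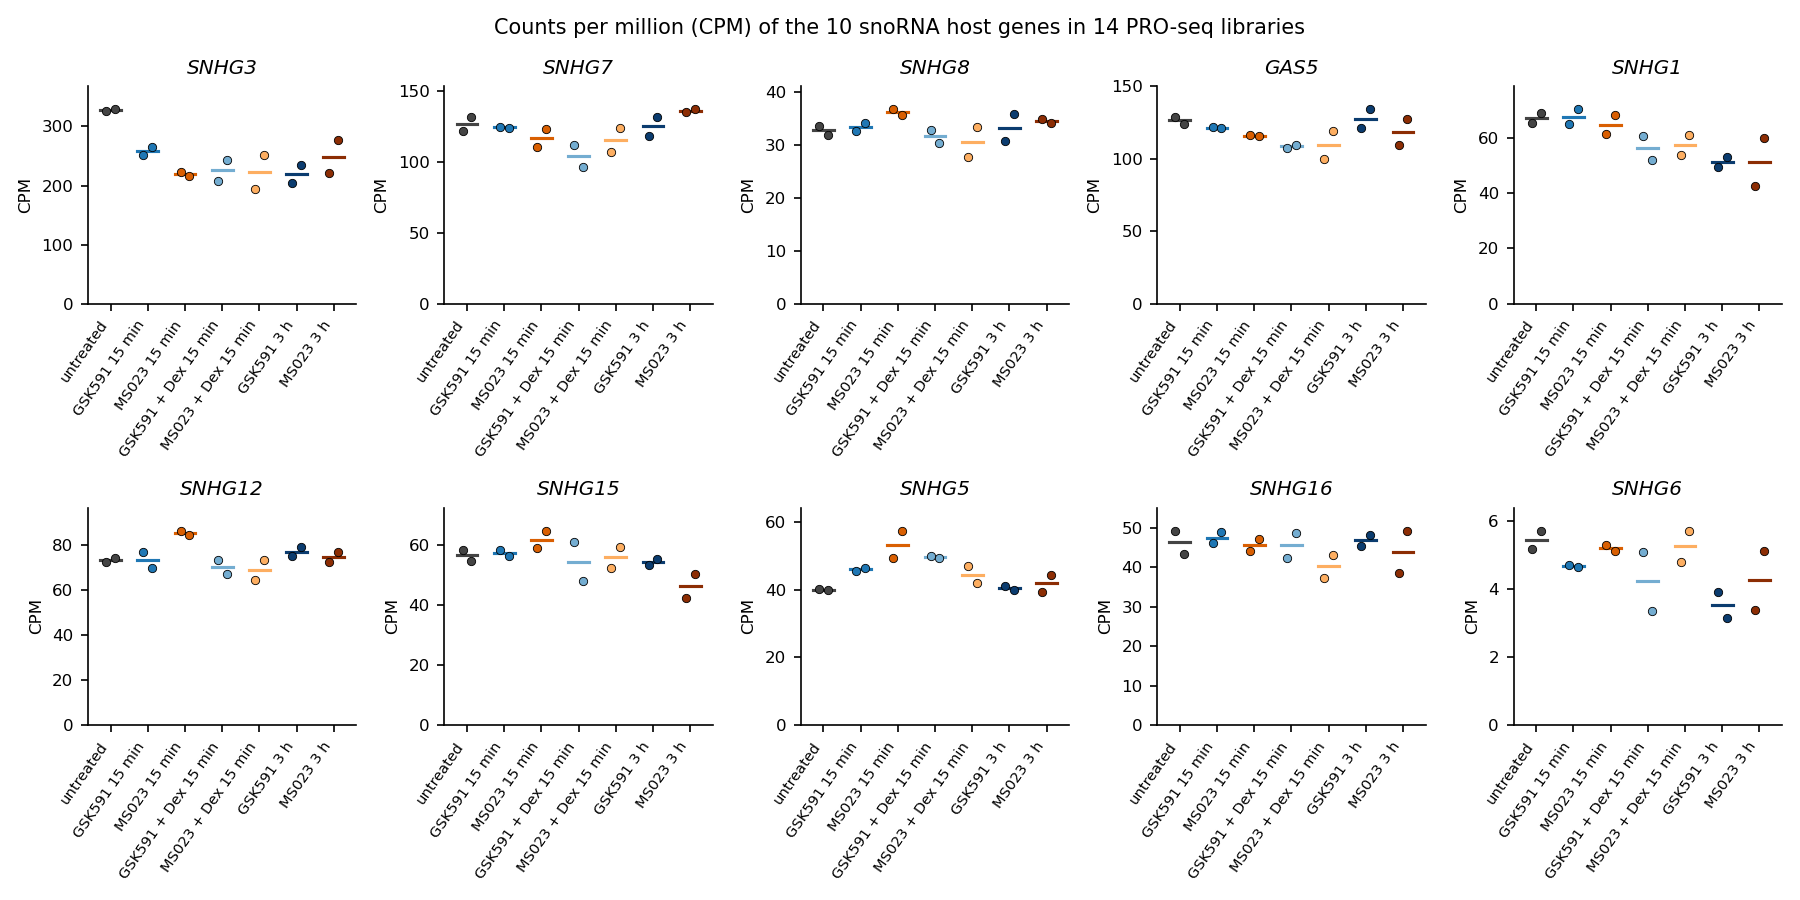
CPM of each host gene in the 14 libraries, by group, with each point 1 library and each bar the mean of 2, in the order of the untreated level per length. The untreated SNHG3 libraries (327 and 329 CPM) lie above all 12 treated ones (194 to 277 CPM), and the 4 SNHG1 libraries of 3 h (42.7 to 60.0 CPM) lie under both untreated ones (65.4 and 69.0 CPM).

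Genes were called with edgeR's quasi-likelihood test at a Benjamini-Hochberg adjusted p under 0.05 over all 21910 genes. Of 130 values (10 genes in 13 comparisons), 12 were called, all of them lower, in 5 genes: SNHG1, SNHG3, SNHG5, SNHG12 and SNHG15. Over all genes in the same 13 comparisons, 5.08% of values were called in either direction and 1.93% were called lower. These shares are over genes of all levels and are not matched to the host genes, whose untreated levels stood at percentiles 77.3 to 99.6. GAS5, SNHG6, SNHG7, SNHG8 and SNHG16 passed in none. The 6 comparisons with untreated cells share the same 2 untreated libraries, so their values are given side by side and are not separate evidence.

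With GSK591 for 15 min, 0 of the 10 were called, where 0.306% of all genes were. SNHG3 alone had an unadjusted p under 0.05, and DESeq2 also called 0. With MS023 for 15 min, 1 of 10 was called (SNHG3), where 0.183% of all genes were. With GSK591 and Dex, 1 of 10 was called (SNHG3), against 5.85% of all genes, and with MS023 and Dex again 1 (SNHG3), against 7.66%. At 3 h, SNHG1 and SNHG3 were called with GSK591, against 11% of all genes, and the same 2 genes with MS023, against 7.63%. All these calls were lower, and the share of all genes called lower was 0.1% with MS023 at 15 min, 2.64% with GSK591 and Dex, 2.67% with MS023 and Dex, 3.79% with GSK591 at 3 h and 2.23% with MS023 at 3 h. The median log2 fold change of the 10 lay between -0.14 (GSK591 with Dex) and 0.01 (GSK591 15 min), where the median over all genes lay between -0.01 and 0.02 in these comparisons.

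**Figure D3:**
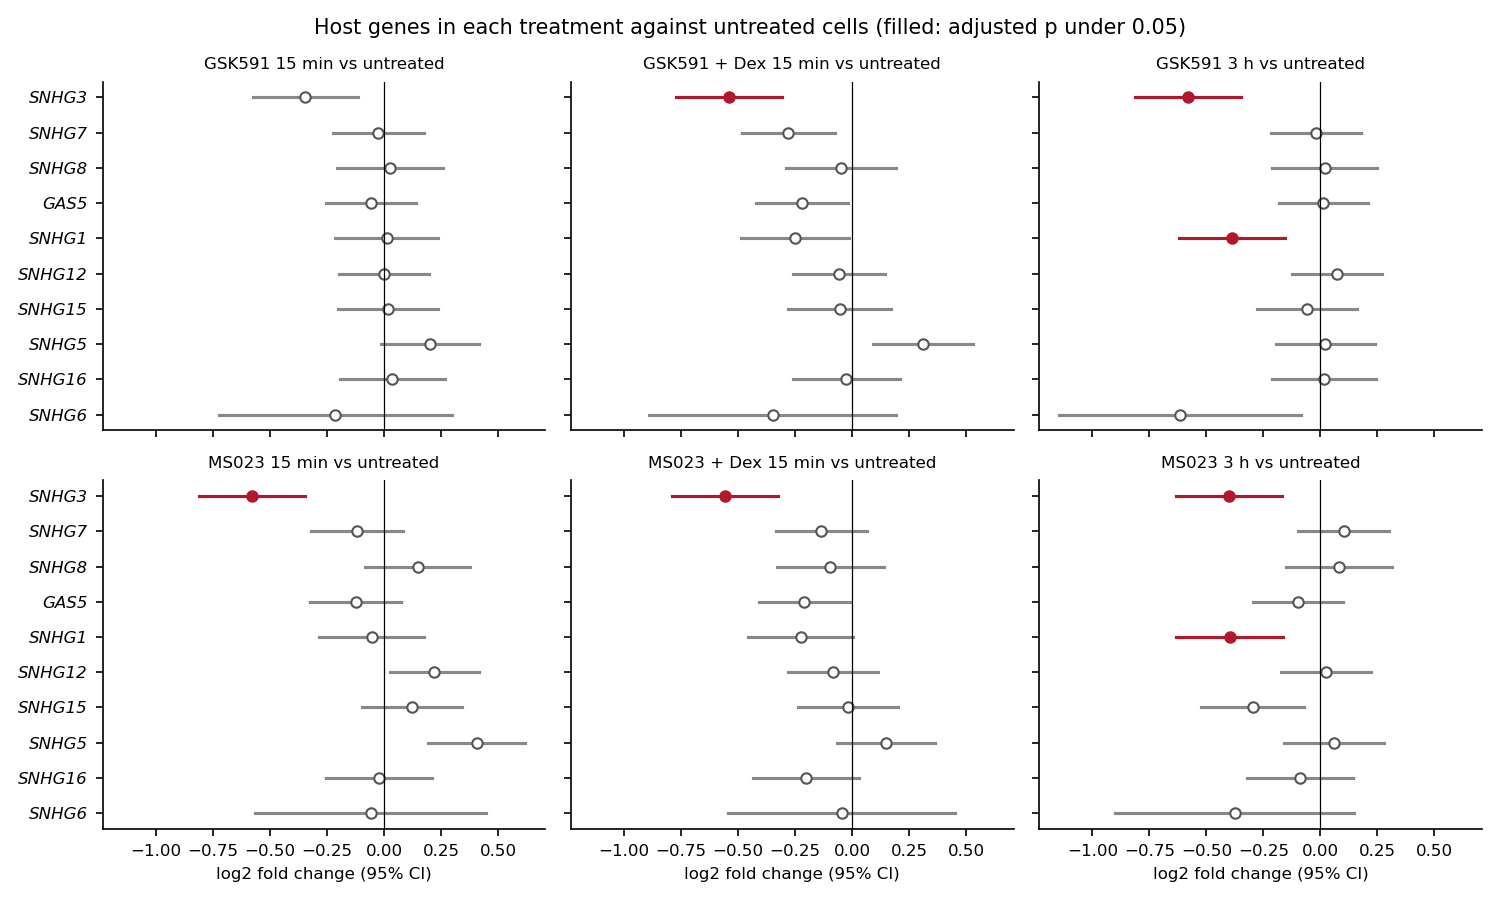
Log2 fold change of each host gene against untreated cells with its 95% confidence interval (edgeR), in 6 panels, 1 per treatment, where filled red points passed an adjusted p of 0.05. SNHG3 is left of 0 in every panel (-0.34 to -0.58), SNHG1 is called in the 3 h panels only (-0.39 and -0.40), and SNHG5 lies right of 0 at 15 min without being called.

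SNHG3 (ENSG00000242125.3, chr1:28505980-28510892, plus strand) hosts the U17 snoRNAs, which are needed to process the ribosomal RNA precursor of the small subunit. Its CPM was 327 and 329 in the untreated libraries. It was 251 and 265 with GSK591 and 223 and 216 with MS023 at 15 min. With Dex added it was 208 and 243 beside GSK591, and 194 and 252 beside MS023. All 8 libraries of 15 min treatment were therefore below both untreated ones, and the groups with Dex were more spread than those without.

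At 3 h, SNHG3 was at 204 and 235 CPM with GSK591 and at 221 and 277 CPM with MS023. Every one of the 12 treated libraries lay under the lower untreated one, and SNHG3 was the only host gene of the 10 without overlap, where 2.11% of all tested genes had no overlap in either direction. SNHG3 rests on 1441 to 3038 counts per library, so counting error is small beside the gap. In bulk libraries, fewer transcribing cells and less transcription per cell cannot be told apart.

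Against untreated cells SNHG3 fell by 0.58 ± 0.12 (SE) on the log2 scale with MS023 at 15 min, to 66.9% of the untreated level (adjusted p = 0.0133). It fell by 0.54 ± 0.12 with GSK591 and Dex (adjusted p = 0.00215) and by 0.56 ± 0.11 with MS023 and Dex (adjusted p = 0.000997). At 3 h it fell by 0.58 ± 0.11 with GSK591 (adjusted p = 0.000423) and by 0.40 ± 0.11 with MS023 (adjusted p = 0.0207). GSK591 at 15 min gave a log2 fold change of -0.34 (95% confidence interval -0.58 to -0.11, adjusted p = 0.334), which was not called. With only the groups compared in the fit, that value was -0.36 and passed (adjusted p = 0.0139).

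The SNHG3 call with MS023 at 15 min was lost under scaling by library size alone (log2 fold change -0.41, adjusted p = 0.231), and without untreated library 1 (-0.59, 0.178) or 2 (-0.58, 0.206) or MS023 library 1 (-0.60, 0.15) or 2 (-0.57, 0.16). Mitochondrial genes took 44.5% and 39.8% of counts in those MS023 libraries, and scaling by library size without mitochondrial genes gave -0.74 (adjusted p = 0.00146), a larger fall that was called. Without MS023 and Dex library 1 the MS023 and Dex value was -0.38 (adjusted p = 0.112), and the MS023 3 h call was lost under library size alone (-0.38, 0.125), without untreated library 1 (-0.40, 0.126) or 2 (-0.38, 0.164), and without MS023 3 h library 1, where it moved to -0.25 (0.412). The falls with GSK591 and Dex and with GSK591 at 3 h were called in all 7 other settings and all 14 fits without 1 library. The GSK591 and Dex value was -0.44 without library 1 of that group (adjusted p = 0.0417) and -0.65 without library 2 (0.00151).

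A share within a library does not depend on the scaling between libraries. SNHG3 took 36.2% (exact Clopper-Pearson 95% interval 35.2 to 37.3) and 36.4% (35.4 to 37.5) of the counts of the 10 host genes in the untreated libraries. It took 26.4% to 32.5% in the 12 treated libraries, the lowest in MS023 15 min library 2 (25.3 to 27.6) and the highest in GSK591 and Dex library 2 (31.2 to 33.8). The untreated intervals, which cover counting error only, lie above all treated ones. The other 9 genes summed to 575 CPM in both untreated libraries and to 494 to 602 CPM in the 12 treated ones. Their sum was below both untreated libraries in all 4 with Dex (494 to 561 CPM). The lowest and the highest of these 4 were both MS023 and Dex libraries. The sum lay on both sides of the untreated level at 15 min without Dex (569 to 602 CPM) and at 3 h (518 to 584 CPM). How often sums of other genes are separated in this way is not given here, so this is a description only.

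Other reads at the same locus were also examined. The SNORA73B row counts reads in a stretch that is intron in both SNHG3 and RCC1. It cannot tell the precursor of either gene from mature snoRNA. The row was at 19.0 and 17.0 CPM in the untreated libraries. With GSK591 it was 13.1 and 18.7 CPM at 15 min and 11.0 and 12.7 at 3 h. With MS023 it was 12.9 and 11.6 CPM at 15 min and 12.4 and 16.1 at 3 h. One GSK591 15 min library thus reached the untreated range, and the 3 h libraries did not.

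With Dex, SNORA73B was at 14.7 and 8.42 CPM beside GSK591 and at 11.1 and 14.6 CPM beside MS023. It fell by 0.63 ± 0.19 on the log2 scale with GSK591 and Dex (adjusted p = 0.0459) and by 0.61 ± 0.18 with GSK591 at 3 h (adjusted p = 0.0245). The GSK591 and Dex call rested on library 2 of that group, without which the value was -0.28 (adjusted p = 0.567), and without library 1 it was -1.10 (0.00337). The remaining values against untreated cells, from -0.18 to -0.55, did not pass. RCC1, which encodes the nucleotide exchange factor of Ran and runs through SNHG3 on the same strand, was at 35.6 and 36.3 CPM in untreated libraries and 31.0 to 43.8 CPM in treated ones. Its log2 fold changes against untreated cells ran from -0.16 to 0.17 and none was called, and whether RCC1 and SNHG3 differ in their change was not tested.

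**Figure D4:**
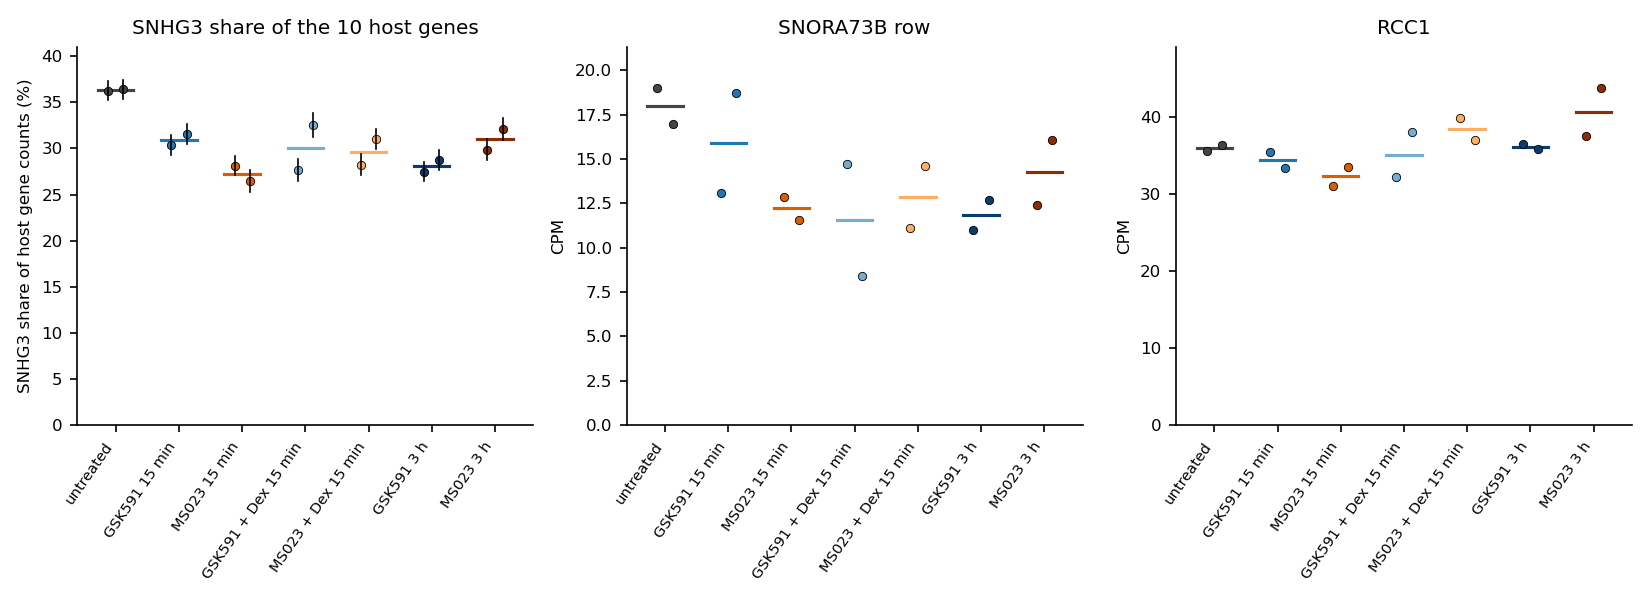
Left, the share of SNHG3 in the counts of the 10 host genes (percent, points with exact 95% intervals), and centre and right, CPM of the SNORA73B row and of RCC1, per library, with bars at the group means. The untreated share (36.2% and 36.4%) is above all treated shares (26.4% to 32.5%), while RCC1 overlaps between untreated (35.6 and 36.3 CPM) and treated libraries (31.0 to 43.8 CPM).

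SNHG12 (ENSG00000197989.14, chr1:28578538-28583132, minus strand) hosts H/ACA snoRNAs, SNORA61, SNORA44 and SNORA16A, and SNORD99. It was at 72.3 and 74.1 CPM in untreated cells, 76.9 and 69.6 with GSK591 and 86.2 and 84.4 with MS023 at 15 min. With Dex it was at 73.4 and 67.0 CPM beside GSK591 and 64.5 and 73.4 beside MS023. At 3 h it was at 74.9 and 79.1 CPM with GSK591 and 72.3 and 76.9 with MS023. The MS023 15 min libraries were the highest of the 14, and no comparison with untreated cells was called.

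SNHG12 fell by 0.31 ± 0.10 when Dex was added to MS023 (adjusted p = 0.0401), to 80.9% of the level with MS023 alone. It was the 1 host gene of 10 called there, where 8.97% of all genes were called and 3.07% were called lower. The call was lost with DESeq2 (log2 fold change -0.30, adjusted p = 0.101), with nuclear library size alone (-0.24, 0.159), and without either untreated library (-0.30, 0.0686 and 0.0684), MS023 library 1 (-0.29, 0.265) or 2 (-0.32, 0.117), MS023 and Dex library 1 (-0.21, 0.409) or 2 (-0.40, 0.0583), or GSK591 3 h library 2 (-0.31, 0.0507). The SNORD99 row held 5 to 23 counts per library. It was at 1.83 and 2.52 CPM in untreated cells, 2.16 and 2.55 with MS023 and 0.701 and 1.60 with MS023 and Dex, and no SNORD99 value was called.

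SNHG15 (ENSG00000232956.8, chr7:44983023-44986961, minus strand) hosts the H/ACA snoRNA SNORA9. It was at 58.4 and 54.7 CPM in untreated cells, at 58.8 and 64.7 with MS023 for 15 min, and at 42.2 and 50.3 with MS023 for 3 h. With GSK591 it was at 58.2 and 56.3 CPM at 15 min and 53.3 and 55.3 at 3 h. With Dex it was at 60.8 and 47.9 CPM beside GSK591 and at 52.5 and 59.3 beside MS023. Both MS023 3 h libraries were below all other libraries without Dex, untreated ones included. GSK591 and Dex library 2, at 47.9 CPM, was below MS023 3 h library 2, at 50.3 CPM. The share of all genes with such a separation is not given here.

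SNHG15 fell by 0.42 ± 0.11 from 15 min to 3 h of MS023, to 74.8% (adjusted p = 0.00915). Against untreated cells the MS023 3 h value was -0.30 (adjusted p = 0.1), which was not called. The 3 h against 15 min call was lost under nuclear library size alone (-0.30, adjusted p = 0.0846), without MS023 15 min library 2 (-0.35, 0.113) and without MS023 3 h library 1 (-0.29, 0.222).

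SNHG7 (ENSG00000233016.6, chr9:136721366-136728184, minus strand), host of the SNORA17 family, ranged from 96.1 to 137 CPM. The lowest library was GSK591 and Dex library 2 and the highest MS023 3 h library 2. With GSK591 and Dex it was at 112 and 96.1 CPM against 121 and 132 in untreated cells, a log2 fold change of -0.28 (adjusted p = 0.0978). That value passed with nuclear library size alone (-0.44, adjusted p = 0.00585) and without GSK591 and Dex library 1 (-0.40, 0.041), and was -0.17 without library 2 (0.558). SNHG8 (ENSG00000269893.6, chr4:118278709-118279823, plus strand), host of SNORA24, ranged from 27.8 to 36.8 CPM. The untreated libraries, at 33.7 and 31.9 CPM, lay inside the range of the treated ones.

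Among the hosts of box C/D snoRNAs, SNHG1 (ENSG00000255717.6, chr11:62851988-62855914, minus strand) is the U22 host gene and carries SNORD22 and SNORD25 to SNORD30. It was at 65.4 and 69.0 CPM in untreated cells, 65.0 and 70.5 with GSK591 and 61.5 and 68.3 with MS023 at 15 min. It was at 49.7 and 53.0 CPM with GSK591 and 42.7 and 60.0 with MS023 at 3 h. With Dex it was at 60.7 and 52.0 CPM beside GSK591 and 53.9 and 61.0 beside MS023. The 3 h libraries and the Dex libraries, all 8, lay under both untreated ones, and the 15 min libraries without Dex spread across the untreated level. The share of all genes with such a separation is not given here, so this describes SNHG1 only.

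At 3 h SNHG1 fell by 0.39 ± 0.11 with GSK591 (adjusted p = 0.0207) and by 0.40 ± 0.12 with MS023 (adjusted p = 0.0239), to 76.4% and 75.9% of untreated. With Dex for 15 min the values were -0.25 beside GSK591 (adjusted p = 0.231) and -0.23 beside MS023 (adjusted p = 0.263), neither called. Both 3 h calls were lost with DESeq2 (adjusted p = 0.0867 and 0.106) and with library size alone (log2 fold change -0.25, adjusted p = 0.344 for GSK591, and -0.37, 0.19 for MS023). They were also lost without untreated library 1 (0.0798 and 0.0988) or 2 (0.207 and 0.246). The GSK591 call was lost without GSK591 3 h library 1 (0.193) or 2 (0.063), and without MS023 3 h library 1 the MS023 value moved to -0.16 (0.612).

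SLC3A2, which encodes the heavy chain of an amino acid transporter, starts 188 bp from SNHG1 on the other strand. It was at 154 and 151 CPM in untreated cells, 159 and 148 with GSK591 and 153 and 147 with MS023 at 3 h. Its log2 fold changes at 3 h were 0.02 (95% confidence interval -0.17 to 0.20) and -0.02 (-0.21 to 0.17), and its 3 h and untreated libraries overlapped. At 15 min it was at 140 and 142 CPM with GSK591 and 151 and 157 with MS023. With Dex it was at 131 and 145 CPM beside GSK591 and 123 and 136 beside MS023, with log2 fold changes of -0.14 (-0.33 to 0.05) and -0.23 (-0.42 to -0.04), neither called. All 4 Dex libraries were thus below both untreated ones for SLC3A2, as they were for SNHG1. For SLC3A2 the GSK591 15 min libraries without Dex (140 and 142 CPM) were below both untreated ones too. The share of all genes with either separation is not given here. The difference between both genes' changes was not tested.

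The length of treatment was compared for each inhibitor. From 15 min to 3 h of GSK591, 1 of the 10 was called, where 6.41% of all genes were called and 2.77% were called lower: SNHG1 fell by 0.40 ± 0.12 (adjusted p = 0.0278). From 15 min to 3 h of MS023, 3 of the 10 were called, where 12% of all genes were called and 4.4% were called lower. Besides SNHG15, these were SNHG1, which fell by 0.34 ± 0.12 (adjusted p = 0.0479), and SNHG5. The GSK591 call of SNHG1 was lost with DESeq2 (adjusted p = 0.0866), both scalings by size alone (0.261 and 0.0503), and without any 1 of the 4 libraries compared (0.071 to 0.26). The MS023 call of SNHG1 was kept in 3 of 7 other settings and 3 of 14 fits without 1 library, and without MS023 3 h library 1 the value was -0.11 (adjusted p = 0.702).

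SNHG5 (ENSG00000203875.11, chr6:85660950-85678748, minus strand), is the U50 host gene. It was at 40.3 and 39.9 CPM in untreated cells, 45.6 and 46.6 with GSK591 and 49.3 and 57.5 with MS023 at 15 min. With Dex it was at 49.9 and 49.6 CPM beside GSK591 and 47.0 and 42.0 beside MS023. At 3 h it was at 41.3 and 40.1 CPM with GSK591 and 39.5 and 44.3 with MS023. All 8 libraries of 15 min treatment were above both untreated ones, and the 3 h libraries surrounded the untreated level. How many of all genes are separated in this way is not given here.

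For SNHG5 the value against untreated cells was 0.41 ± 0.11 with MS023 at 15 min (unadjusted p = 0.000431, adjusted p = 0.124) and 0.31 ± 0.11 with GSK591 and Dex (adjusted p = 0.0824), neither called over all genes. With only the groups compared in the fit, the MS023 value of 0.40 passed (adjusted p = 0.0211). From 15 min to 3 h of MS023, SNHG5 fell by 0.35 ± 0.11, to 78.6% (adjusted p = 0.0256). That call was kept in 3 of 7 other settings, with an adjusted p of 0.109 in DESeq2, and was lost without either untreated library (0.0534 and 0.0532), MS023 15 min library 2 (0.302) or MS023 3 h library 1 (0.267).

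**Figure D5:**
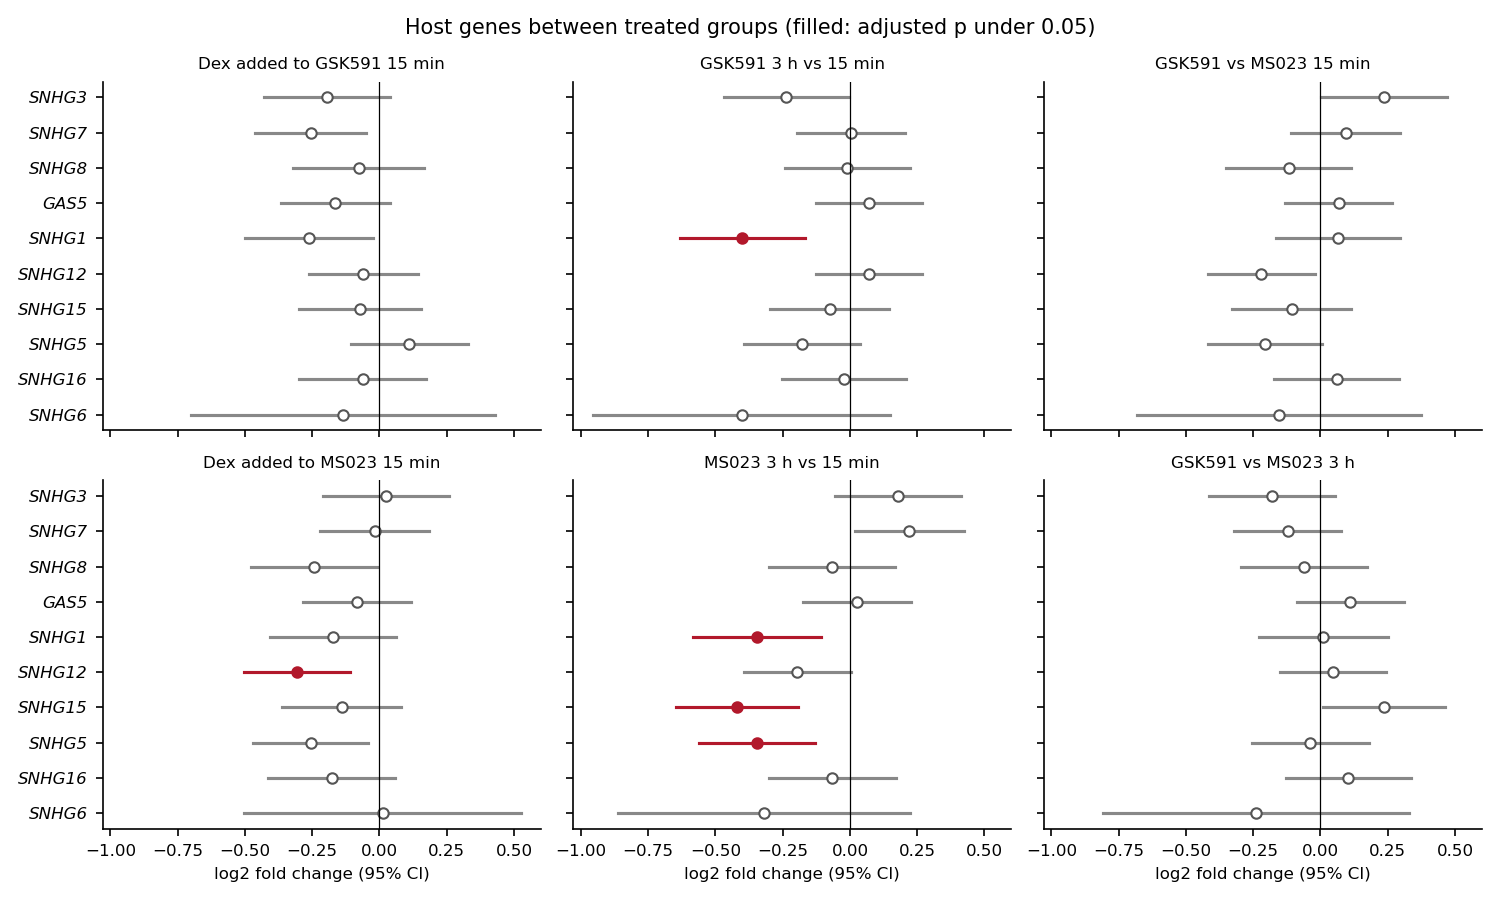
Log2 fold change with its 95% confidence interval (edgeR) for Dex added to each inhibitor, for 3 h against 15 min, and for GSK591 against MS023, where filled red points passed an adjusted p of 0.05. SNHG12 is called with Dex beside MS023, SNHG1 at 3 h of both inhibitors, and SNHG5 and SNHG15 at 3 h of MS023, while the inhibitor panels have no filled point.

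GAS5 (ENSG00000234741.7, chr1:173863900-173868882, minus strand) was the host gene with background in glucocorticoid signalling, and its level was not called in any comparison. It was at 129 and 124 CPM in untreated cells, 122 and 121 with GSK591 and 116 and 116 with MS023 at 15 min. With Dex it was at 108 and 110 CPM beside GSK591 and 99.8 and 119 beside MS023. At 3 h it was at 121 and 134 CPM with GSK591 and 109 and 127 with MS023. All 8 libraries of 15 min treatment were below both untreated ones, and the 3 h libraries overlapped the untreated ones. This is a description, and its share over all genes is not given here.

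The GAS5 log2 fold change against untreated cells was -0.22 with GSK591 and Dex (95% confidence interval -0.42 to -0.02, adjusted p = 0.213) and -0.21 with MS023 and Dex (-0.41 to -0.01, adjusted p = 0.221). Adding Dex to GSK591 gave -0.16 (-0.37 to 0.04) and adding it to MS023 gave -0.08 (-0.29 to 0.12), so a fall below these lower bounds was not seen and smaller ones could not be told from the spread. With nuclear library size alone the GSK591 and Dex value of -0.38 passed (adjusted p = 0.0202). ZBTB37, whose start lies 800 bp from that of GAS5 on the other strand, was at 21.4 and 18.3 CPM in untreated cells and at 15.6 to 21.6 CPM in treated ones.

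SNHG16 (ENSG00000163597.14, chr17:76557766-76565348, plus strand), host of the SNORD1 snoRNAs, ranged from 37.4 to 49.3 CPM, with the lowest library MS023 and Dex library 1. Its neighbour AC015802.4, a noncoding gene that starts 83 bp away on the other strand, was at 7.53 and 6.68 CPM in untreated cells, 5.18 and 4.89 with GSK591 and 4.97 and 4.65 with MS023 at 15 min, and 10.2 and 7.21 with GSK591 and 7.96 and 7.20 with MS023 at 3 h. The 15 min libraries without Dex were thus below the untreated ones. From 15 min to 3 h it rose by 0.80 ± 0.22 with GSK591 (edgeR adjusted p = 0.0196), and the MS023 value of 0.65 was not called (adjusted p = 0.058). Against untreated cells its GSK591 3 h value was 0.30 (95% confidence interval -0.11 to 0.71), not called. SNHG16 had a log2 fold change of -0.02 (95% confidence interval -0.25 to 0.21) from 15 min to 3 h of GSK591. SNHG6 (ENSG00000245910.8, chr8:66921684-66926398, minus strand), host of SNORD87, had 22 to 52 counts per library, or 3.14 to 5.71 CPM. With GSK591 at 3 h it was at 3.90 and 3.14 CPM against 5.16 and 5.69 in untreated cells. The log2 fold change of -0.62 had a 95% confidence interval of -1.15 to -0.09 (adjusted p = 0.133), and at this depth a change of that size was not separated from the spread over all genes.

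Adding Dex to GSK591 left 0 of the 10 called, where 3.7% of all genes were. SNHG1 (-0.26) and SNHG7 (-0.26) had unadjusted p-values of 0.0307 and 0.016, and DESeq2 called 0. The test of whether the Dex effect differed between the inhibitors called 0 of the 10, where 1.15% of all genes were, and DESeq2 called 0 of the 10. SNHG5 alone was under an unadjusted edgeR p of 0.05 (difference 0.37, 95% confidence interval 0.06 to 0.67), as were 2360 of all genes. Of the 10 values, 9 were below 0 when Dex was added to GSK591 and 8 when it was added to MS023, with medians of -0.11 and -0.16 against -0.00430 and -0.02 over all genes. The share of all genes below 0 is not given here. The libraries of each Dex group were unlike. The mean log2 CPM of the 10, each gene centred over the 14 libraries, was -0.0104 and -0.121 with GSK591 and Dex. With MS023 and Dex it was -0.153 and 0.0386, against 0.0541 and 0.113 with MS023 alone and 0.0493 and 0.0632 with GSK591 alone.

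Between the inhibitors, 0 of the 10 were called at 15 min, where 1.09% of all genes were, and 0 in DESeq2. An unadjusted edgeR p under 0.05 was found for 2 (SNHG3 and SNHG12), and for 2137 of all genes. At 3 h 0 of the 10 were called, where 0% of all genes were, with 1 under an unadjusted 0.05 (SNHG15) and 0 of the 10 in DESeq2. Over all genes at 3 h, edgeR gave 1319 at an unadjusted p under 0.05 and DESeq2 called 1. For SNHG3 the difference, GSK591 minus MS023, was 0.23 at 15 min (95% confidence interval 0.00 to 0.47) and -0.18 at 3 h (-0.41 to 0.05). For SNHG1 it was 0.07 (-0.17 to 0.30) and 0.01 (-0.23 to 0.25), so the inhibitors are not shown to act alike on either gene.

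In the authors' deposited table of DESeq2 comparisons, SNHG3 had a log2 fold change of -0.58 with GSK591 at 3 h (adjusted p = 0.0133), and -0.56 with MS023 and Dex (adjusted p = 0.0384). The authors' deposited table gave SNHG3 adjusted p-values of 0.0611 with GSK591 and Dex, 0.213 with MS023 at 3 h, and 0.987 with MS023 at 15 min, where its unadjusted p was 0.000381. No other host gene of the 10 had an adjusted p under 0.05 in the authors' deposited table, and the smallest for SNHG1 was 0.208.

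Other genes of snoRNA production were counted for comparison. Of 20 further noncoding host genes listed, 18 were tested, and against untreated cells 0 were called with either inhibitor at 15 min, 1 with GSK591 and Dex, 3 with GSK591 at 3 h and 0 with MS023 and Dex or MS023 at 3 h. The 1 (5.56% of those tested) and the 3 (16.7%) stand beside 5.85% and 11% of all genes, so neither share is a result about the list. Where the count was 0, edgeR gave 1 to 4 of them an unadjusted p under 0.05, and DESeq2 called 0 of them in all 6 comparisons. SNHG17 fell by 0.37 ± 0.11 and ZFAS1, host of SNORD12 family members, by 0.36 ± 0.11 with GSK591 at 3 h, where DANCR rose by 0.52 ± 0.15 (edgeR, adjusted p = 0.024, 0.0303 and 0.0204). SNHG21 rose by 0.89 ± 0.28 with GSK591 and Dex (adjusted p = 0.0493), and without library 2 of that group its value was 0.71 (0.292).

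Of 32 protein-coding host genes, all tested, 0 were called with either inhibitor at 15 min, where edgeR gave unadjusted p-values under 0.05 to 3 with GSK591 and 5 with MS023 and DESeq2 called 0. With Dex, 7 were lower and 1 higher beside GSK591, 25% of the 32 against 5.85% of all genes, and 5 lower and 1 higher beside MS023, 18.8% against 7.66%. Without library 1 of the GSK591 and Dex group 5 were lower and 0 higher, and without library 2 there were 4 lower and 1 higher. At 3 h, 9 were lower and 2 higher with GSK591, 34.4% against 11%, and 7 lower and 0 higher with MS023, 21.9% against 7.63%. The shares of all genes called lower in these 4 comparisons, given above, were 2.64%, 2.67%, 3.79% and 2.23%. No share of all genes was matched to the level of the coding hosts. RPL10 and RPL13A, ribosomal protein genes, fell by 0.67 ± 0.10 and 0.65 ± 0.09 with GSK591 at 3 h, and by 0.51 ± 0.10 and 0.47 ± 0.09 with MS023. The median of these coding hosts was -0.20 in both 3 h comparisons, where that of the 10 noncoding hosts was -0.00335 with GSK591 and -0.09 with MS023.

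Of 8 core proteins of snoRNA particles, all tested, none was called with either inhibitor alone at 15 min or with MS023 at 3 h. With GSK591 and Dex 2 were lower, where 2.64% of all genes were. FBL, the methyltransferase of box C/D particles, fell by 0.42 ± 0.12 (adjusted p = 0.0333) and NOP56, its partner, by 0.34 ± 0.10 (0.0257). Without library 1 of that group neither passed (-0.29, adjusted p = 0.284, and -0.35, 0.0598), and without library 2 NOP56 did not (-0.32, 0.118). With MS023 and Dex NOP56 alone of this list was called, where 2.67% of all genes were called lower, and it fell by 0.31 ± 0.09 (adjusted p = 0.0322). With GSK591 at 3 h, where 11% of all genes were called, DKC1 fell by 0.47 ± 0.15 (adjusted p = 0.032). DKC1 is the pseudouridine synthase of H/ACA particles and itself a snoRNA host. NOP10, its small partner, rose by 1.46 ± 0.38 from 1.51 to 4.20 CPM (adjusted p = 0.0081). Both were outside the DESeq2 calls, of which there were 0 in this list. Of 12 assembly factors, all tested, 0 were called with either inhibitor alone at 15 min, where edgeR gave an unadjusted p under 0.05 to 0 with GSK591 and 3 with MS023 and DESeq2 called 0. PIH1D1, a subunit of the R2TP complex, fell by 0.44 ± 0.10 with GSK591 and Dex (adjusted p = 0.00525) and by 0.34 ± 0.10 with MS023 and Dex (0.0265). ZNHIT3 fell by 0.44 ± 0.12 with MS023 and Dex (adjusted p = 0.0149), and by 0.39 ± 0.12 with GSK591 (0.0231) and 0.47 ± 0.12 with MS023 (0.0083) at 3 h. DESeq2 called 1 of the 12 with GSK591 and Dex and 0 in the other 3 of these comparisons, and without library 1 of the GSK591 and Dex group the PIH1D1 value of -0.40 did not pass (adjusted p = 0.0588). Of 7 genes of nonsense-mediated decay, none was called with either inhibitor alone at 15 min or with GSK591 and Dex. UPF1, the central helicase, rose with MS023 and Dex (0.53 ± 0.10, adjusted p = 0.00044) and at 3 h of GSK591 (0.41 ± 0.10, 0.00525) and MS023 (0.46 ± 0.10, 0.00255). SMG6 fell by 0.42 ± 0.12 with GSK591 at 3 h (adjusted p = 0.0152). Of all genes, 7.66%, 11% and 7.63% were called in these comparisons.

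The 10 host genes did not move as one. Over the 14 libraries, 39 of the 45 pairs had a Pearson correlation of log2 CPM above 0, with a median of 0.29. The highest was SNHG8 with SNHG12 (0.77) and the lowest SNHG5 with SNHG7 (-0.52). The points share their libraries and their scaling, and the values are descriptions only. Among 17468 other genes (mean CPM of 2 or more), the 5 whose level over the 14 libraries was most like the mean of the 10 were SURF1 (Pearson r = 0.91), RTF2 (0.89), AC009088.1 (0.85), OGFOD3 (0.85) and AC132938.3 (0.83).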

How the data were processed

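The deposited count table holds whole-number read counts per gene for 14 PRO-seq libraries (A549), made with featureCounts 2.0.1 of Subread on hg38, per the submitters' processing notes; the strand setting and counting feature are not given in the sources used here. The authors' own tables hold log2 fold changes with standard errors and p-values from DESeq2, as deposited. Counts were tested with edgeR 4.0.16 (R 4.3.3): TMM scaling, filterByExpr, quasi-likelihood F test, 1 fit of all 14 libraries with 1 coefficient per group and 7 residual degrees of freedom, Benjamini-Hochberg adjustment over 21910 genes. CPM is on TMM-scaled library sizes.

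The alternatives were DESeq2 size factors, library size alone, library size without mitochondrial genes ("nuclear library size"), DESeq2 1.42.0, no count filter, only the groups compared, the replicate block, and each library left out. On data simulated for GSK591 3 h against untreated (21649 genes tested), edgeR called 70% of 200 genes changed by 1 on the log2 scale and 6 unchanged genes. The called falls of host genes were smaller, 0.31 to 0.58, and changes of that size were not simulated. The host genes, the other lists and the tests were chosen with earlier results of these data known. All 10 host genes are described, called ones in full. Of other lists the 3 largest called changes at most were named. The 5 genes most like the host genes were ranked by Pearson r. Replicate libraries differed by more than sampling noise (chi-square per degree of freedom of 2 to 5.38, and 13.4 for GSK591 and Dex). Exons and snoRNA sequences came from GENCODE release 29 (GRCh38), start regions from RefSeq, and SNORA73A and SNORA73B were aligned with Biopython 1.88.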

Additional observations from a re-analysis of the deposited data

How the results depend on the processing

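Of 2730 alternative values of single host genes, 63 lost a call, 9 gained one and 0 changed direction with a call. Only the 12 values called in the main fit could lose a call. The 63 losses therefore all fell on alternatives of these 12, and the 2730 are not their base. In counts of called host genes against untreated cells, using only the groups compared gave 1 for GSK591 15 min (SNHG3) and 2 for MS023 15 min, and library size alone gave 0 for MS023 15 min, 1 for GSK591 3 h and 0 for MS023 3 h. Nuclear library size alone gave 4 for GSK591 + Dex (GAS5, SNHG1, SNHG3, SNHG7), and DESeq2 gave 1 for each inhibitor at 3 h. For Dex added to GSK591, library size alone gave 1 (SNHG7). For Dex added to MS023 it gave 2, and nuclear library size and DESeq2 gave 0. For GSK591 3 h against 15 min, library size, nuclear library size and DESeq2 gave 0. For MS023 3 h against 15 min, nuclear library size gave 1 (SNHG7, higher by 0.33), DESeq2 1 and only the groups compared 1. The cause was not tested. Leaving out 1 library gave 0 to 1 for MS023 15 min, 1 to 2 for GSK591 + Dex, 0 to 1 for MS023 + Dex, 1 to 2 for GSK591 3 h, 0 to 2 for MS023 3 h, 0 to 1 for Dex added to MS023, 0 to 1 for GSK591 3 h against 15 min and 0 to 3 for MS023 3 h against 15 min. A lone library left in a group was taken to vary like the other groups. Library size alone moved the median of all genes by 0.17 (MS023 15 min) and -0.20 (Dex added to GSK591) on the log2 scale. Same-numbered libraries had correlations of their deviations from -0.073 to 0.111. These do not show a pairing by number, and with 2 libraries per group they cannot exclude one. The replicate block gave the same counts of host genes (0, 1, 1, 1, 2 and 2 against untreated). Counts limit SNHG6 (22 to 52 per library) and the SNORD99 row (5 to 23).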
